A study of Mus musculus with 2 samples.

Results

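The microRNA genes described here are the 9 genes of 3 paralogous clusters, each of which holds a miR-99/100 gene, a let-7 gene and a miR-125 gene in that order along the same strand. They were chosen by gene symbol, through the identifiers of the GENCODE M21 annotation, by a rule that used no measured value. Earlier results of these data were known when they were chosen. They are 9 of the 2202 microRNA genes in the deposited tables. The 3 clusters are Mir99a with Mirlet7c-1 and Mir125b-2, Mir100 with Mirlet7a-2 and Mir125b-1, and Mir99b with Mirlet7e and Mir125a. Small RNA under 30 nt was sequenced from gastrocnemius, a calf muscle, of male B6CASTF1/J mice, the first-generation cross of C57BL/6 and CAST/EiJ, at 14 days of age. The labels name no treatment and no second tissue, age or sex, so the data hold 1 group of 2 replicate libraries and no contrast between conditions. The donor identifier is shared by both libraries, and their labels speak of several males without saying how many animals went into each replicate. The spread given below may therefore be partly technical.

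A microRNA gene is transcribed as part of a longer primary RNA, from which a hairpin is cut and then trimmed to a mature strand of about the length of these fragments. Bases 2 to 8 of that strand, the seed, pair with target messenger RNAs and largely set which messages are repressed. The order miR-99/100, let-7, miR-125 is old in animal evolution, and in flies the cluster acts in developmental timing. The let-7 family is known for its accumulation as cells differentiate and for repression of growth genes, and the RNA-binding proteins LIN28A and LIN28B block the processing of many let-7 precursors. The miR-99/100 family is known to target components of the mTOR and IGF1 receptor pathways. The miR-125 family is known to target Lin28 messages, and miR-125b to target Igf2 in myoblasts.

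The mature 5p strands are shown because they define the 3 families and because they decide which loci a read can be assigned to. Sequences are from RefSeq on GRCm38.p6, whose hairpin coordinates equalled those of the M21 annotation for the 7 members with a hairpin entry. The table held no hairpin for Mir125b-2 and Mir99b and no 5p strand under Mirlet7a-2. The let-7a-5p strand below is the entry under Mirlet7a-1, which lies whole within the Mirlet7a-2 hairpin. Each strand is written 5′ to 3′ with its seed in capitals.
miR-99a-5p (Mir99a): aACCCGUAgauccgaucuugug
miR-100-5p (Mir100): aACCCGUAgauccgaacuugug
miR-99b-5p (Mir99b): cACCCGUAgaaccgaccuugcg
let-7c-5p (Mirlet7c-1): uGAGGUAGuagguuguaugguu
let-7a-5p (Mirlet7a-2): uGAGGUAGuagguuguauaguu
let-7e-5p (Mirlet7e): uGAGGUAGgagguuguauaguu
miR-125b-5p (Mir125b-1 and Mir125b-2): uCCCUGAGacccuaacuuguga
miR-125a-5p (Mir125a): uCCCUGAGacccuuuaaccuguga

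Within a family the 3 members shared the whole seed and differed downstream of it or at the first base. Counted from 1 at the 5′ end, with the base of the strand named first in each pair written first, miR-99a-5p and miR-100-5p differed only by U16A. The miR-99b-5p strand differed from miR-99a-5p by A1C, U11A, U16C and U21C. The let-7c-5p and let-7a-5p strands differed only by G19A, so their first 18 bases were the same. The let-7e-5p strand differed from let-7a-5p only by U9G, the first base after the seed. The miR-125b-5p strand is 22 bases long and matched the 24-base miR-125a-5p strand over the first 13 bases.

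Of the 9 members, 4 carry a 5p strand that is also encoded whole at another locus of the RefSeq table, and 5 do not. The 4 are Mirlet7c-1 (also at Mirlet7c-2), Mirlet7a-2 (also at Mirlet7a-1), and Mir125b-1 and Mir125b-2, which share their strand with each other across clusters. Over all 1738 mature entries of the table, 7.25% were found whole at another locus. That share counts single strands from both sides of the hairpin, whereas the 4 of 9 are genes counted by their 5p strand only. The 3p strands, cut from the other side of the hairpin, were at no other locus of the table for any member. The whole genome was not searched. The strands below are those of the 4 loci that share a 5p strand, with bases 2 to 8 in capitals, and they are what tells these loci apart.
let-7c-1-3p: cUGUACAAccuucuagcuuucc
let-7a-2-3p: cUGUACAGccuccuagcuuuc
miR-125b-2-3p: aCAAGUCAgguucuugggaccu
miR-125b-1-3p: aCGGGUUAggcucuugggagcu

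The deposited tables put reads that map to more than 1 place on a line of their own, which names no gene, and they do not separate the 5p from the 3p strand of a hairpin. A read that is exactly let-7c-5p, let-7a-5p or miR-125b-5p has more than 1 such place. The levels of Mirlet7c-1, Mirlet7a-2, Mir125b-1 and Mir125b-2 below are levels of uniquely placed reads, and they do not show how much mature let-7c, let-7a or miR-125b the muscle held. Multi-mapped reads made up 44.0% and 52.1% of the reads of replicates 1 and 2, which is 47.3 and 65.8 times the counts of the 9 members together. How many of those reads came from these loci was not measured.

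The libraries held 2743657 and 2211254 own-strand counts over all microRNA genes. Levels are given as CPM, the count of a gene per 1000000 of those counts, and 258 genes reached 10 CPM in both libraries. The tissue label was checked against muscle microRNAs. All 10 skeletal muscle markers had a count in both libraries and 7 reached 10 CPM in both. Their summed level was 69536 and 69214 CPM, nearly all of it Mir206. These are uniquely placed reads, so low levels of the Mir1a and Mir133a genes do not show that their mature strands were scarce. Of 6 neuronal and brain markers, 5 (Mir124a-1, Mir124a-2, Mir124a-3, Mir9-1 and Mir9-2) were at 0 in both libraries and Mir9-3 had 1 count in replicate 2. The 3 Mir124a genes share a mature strand, as do the 3 Mir9 genes, so reads of these strands map to several loci, and the zeros do not show that neuronal RNA was absent. The summed level was 98087 and 80432 CPM for the endothelial marker Mir126a, 36704 and 34920.5 CPM for 2 smooth muscle markers, 4780 and 3749.9 CPM for 3 fibroblast markers, 648 and 678 CPM for 3 leukocyte markers, and 384 and 571 CPM for 2 erythroid markers. Liver and pancreas markers summed to 108 and 132 CPM and to 12.4 and 13.1 CPM. Of the fibroblast markers, Mir199a-1 and Mir199a-2 have a mature strand that is also at another locus, so the same limit holds for their levels.

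Each member is given by its CPM in replicate 1, its CPM in replicate 2 and their mean ± SD (n = 2). All 9 members reached 100 CPM in both libraries, and 5 reached 1000 CPM, a level reached by 71 of the 258 genes. Together they held 93468 counts in replicate 1 and 64875 in replicate 2, which is 3.41% and 2.93% of assigned counts (3.17% ± 0.334). A count here is a read of a fragment under 30 nt, whatever the length of the hairpin, so levels were not divided by length. Read lengths were not measured. A ratio between microRNAs is a ratio of reads, and how evenly the library preparation captured each sequence was not measured.

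The cluster on chromosome 16 (mm10) is led by Mir99a (ENSMUSG00000065530.1, 77598936 to 77599000, plus strand), the most abundant of the 9. It was at 20519 and 16379 CPM (18449 ± 2927), which put it in place 13 of all genes by mean level. Mirlet7c-1 (ENSMUSG00000065557.3, 77599657 to 77599750) begins 656 bases after the end of Mir99a and was at 188 and 230.2 CPM (209 ± 29.8). Mir125b-2 (ENSMUSG00000065472.1, 77646273 to 77646343) lies a further 46.5 kb downstream and was at 178 and 148 CPM (163 ± 20.9). All 3 lie in introns of the noncoding host gene Mir99ahg, and Mir125b-2 also touches an exon of C130023A14Rik. Mir99a was high in both libraries and stood at 109 and 71.2 times Mirlet7c-1, and at 115 and 110.4 times Mir125b-2.

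The cluster on chromosome 9 was also led by its miR-99/100 member, but its miR-125 member stood above its let-7 member. Mir100 (ENSMUSG00000093011.1, 41531425 to 41531504, plus strand) was at 6057 and 5538 CPM (5798 ± 367). Mirlet7a-2 (ENSMUSG00000092770.1, 41536716 to 41536811), 5.21 kb downstream, was at 115 and 152 CPM (134 ± 26.0) and had the lowest mean of the 9. Mir125b-1 (ENSMUSG00000093354.1, 41581926 to 41582002), a further 45.1 kb downstream, was at 257 and 256 CPM (256 ± 1.02). The 3 lie in introns of the noncoding genes 3110039I08Rik and Gm49317, and Mir125b-1 also lies in an exon of Gm28119. Mir100 stood at 52.6 and 36.4 times Mirlet7a-2 and at 23.6 and 21.7 times Mir125b-1.

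The cluster on chromosome 17 is compact, 692 bases from end to end, within Spaca6, a protein-coding gene named for the sperm acrosome. Mir99b (ENSMUSG00000065396.1, 17830188 to 17830257, plus strand) was at 1508 and 1246 CPM (1377 ± 185). Mirlet7e (ENSMUSG00000105758.1, 17830352 to 17830444) was at 2938 and 3139 CPM (3039 ± 143), the highest of this cluster. Mir125a (ENSMUSG00000065479.2, 17830812 to 17830879) was at 2306 and 2249.9 CPM (2278 ± 40.0). Mir99b and Mirlet7e lie in an intron of Spaca6, and Mir125a lies in an exon of a Spaca6 transcript. Unlike Mir99a and Mir100, Mir99b was the lowest of its cluster in both libraries. It stood at 0.513 and 0.397 times Mirlet7e and at 0.654 and 0.554 times Mir125a.

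**Figure D1:**
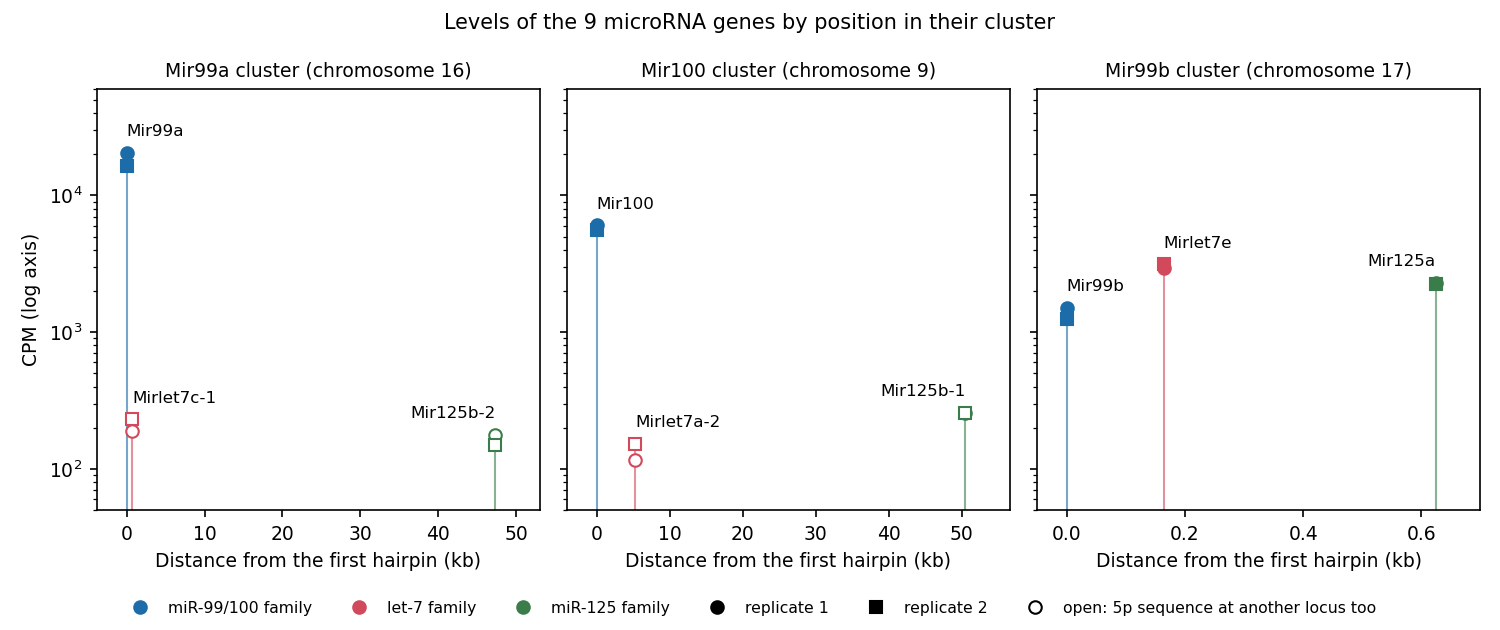
CPM of each member (log axis) against the distance of its start from the first hairpin of its cluster in kb, for Mir99a, Mirlet7c-1 and Mir125b-2, for Mir100, Mirlet7a-2 and Mir125b-1, and for Mir99b, Mirlet7e and Mir125a. Circles are replicate 1, squares replicate 2, and open symbols mark loci whose 5p strand is also encoded elsewhere. The 4 open loci lie between 115 and 257 CPM, and the 5 filled ones between 1246 and 20519 CPM.

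The 3 clusters differed in how far apart their members stood. The highest member was 113 ± 3.49 times the lowest in the Mir99a cluster, 44.5 ± 11.4 times in the Mir100 cluster and 2.23 ± 0.404 times in the Mir99b cluster (n = 2). The Mir99b cluster is the one in which none of the 3 members shares its 5p strand with another locus. In the Mir99a and Mir100 clusters the miR-99/100 member is the only one that does not share it, and it was the highest. The 4 members that share their 5p strand had mean levels from 134 to 256 CPM and the 5 that do not from 1377 to 18449 CPM, with no overlap. All genes at 10 CPM with an entry in the RefSeq table, the members included, were also split by a mature strand at another locus. The 33 with such a strand had a median of 134 CPM and a range of 10.5 to 3635 CPM. The 200 without had a median of 362 CPM and a range of 11.4 to 89259 CPM, so these ranges overlapped. These are descriptions of uniquely placed reads, and the part of read placement in the spread within clusters was not tested.

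**Figure D2:**
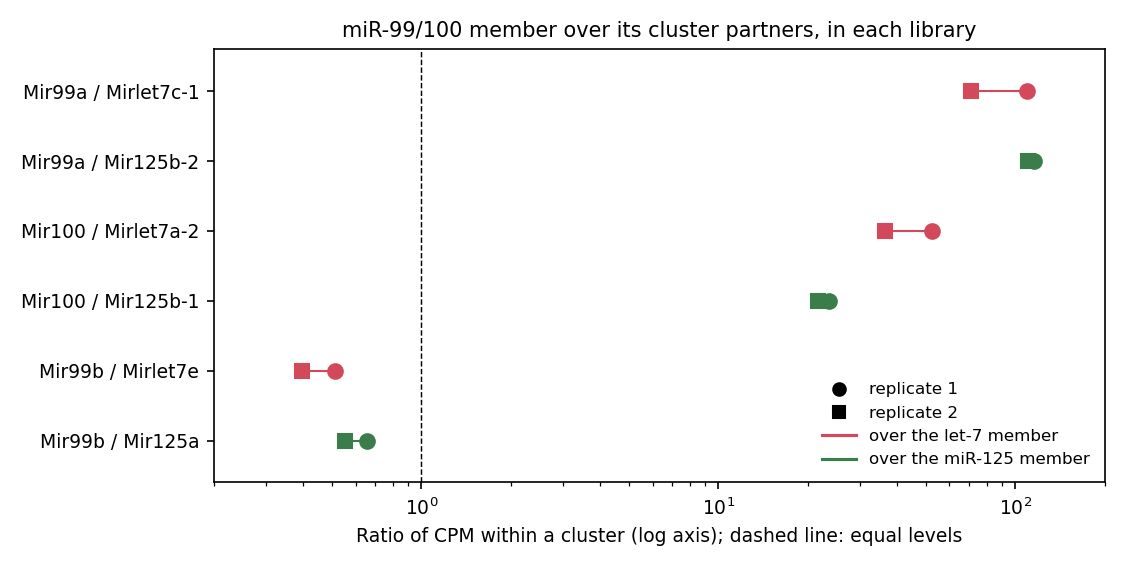
Ratio of the CPM of Mir99a, Mir100 and Mir99b to that of their cluster partners (log axis), in replicate 1 (circles) and replicate 2 (squares). The ratios lie between 21.7 and 115 for Mir99a and Mir100 and between 0.397 and 0.654 for Mir99b, and all 6 are higher in replicate 1.

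By cluster, the Mir99a cluster held 59.2% ± 2.96 of the counts of the 9 members, the Mir100 cluster 19.6% ± 0.985 and the Mir99b cluster 21.2% ± 1.98 (n = 2). As shares of all assigned counts these were 1.88% ± 0.292, 0.619% ± 0.0342 and 0.669% ± 0.00828. By family, the 3 miR-99/100 members held 80.7% ± 2.47 of the members' counts, the 3 let-7 members 10.8% ± 1.76 and the 3 miR-125 members 8.55% ± 0.706. Mir99a by itself held 60.2% of them in replicate 1 and 55.8% in replicate 2. All of these are shares of uniquely placed reads. Mirlet7c-1, Mirlet7a-2, Mir125b-1 and Mir125b-2 share their 5p strand with another locus, and the miR-99/100 members do not. The shares therefore do not show how the mature strands were divided among the families or clusters.

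The order of the members was Mir99a, Mir100, Mirlet7e, Mir125a, Mir99b, Mir125b-1, Mirlet7c-1, Mir125b-2 and Mirlet7a-2. The first 7 places were the same in both libraries. Mirlet7e stood above Mir125a at 1.27 and 1.40 times, and Mir125a above Mir99b at 1.53 and 1.81 times. The last places were close. Mir125b-2 and Mirlet7a-2 overlapped over the 2 libraries and changed places, at 1.54 and 0.976 times. Mirlet7c-1 and Mir125b-2 did not overlap over the 2 libraries. In replicate 1 their counts gave 188 CPM (95% exact Poisson interval 172 to 205) and 178 CPM (162 to 194), which differ by less than counting error. In replicate 2 their counts gave 230.2 CPM (211 to 251) and 148 CPM (133 to 165), and these intervals did not overlap. Divided by hairpin length, an alternative added after the data were seen, Mirlet7e and Mir125a exchange places 3 and 4, and Mirlet7c-1 and Mir125b-2 exchange places 7 and 8.

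Paralogs were compared where each has a 5p strand of its own. Mir99a stood at 3.39 and 2.96 times Mir100, from which its mature strand differs by U16A, and at 13.6 and 13.1 times Mir99b. Mir100 stood at 4.02 and 4.45 times Mir99b. The Mir99a to Mir99b ratio of 13.4 ± 0.324 varied less between libraries than the level of either gene. Among the loci with a shared 5p strand, Mir125b-1 stood at 1.44 and 1.72 times Mir125b-2, and Mirlet7c-1 at 1.63 and 1.51 times Mirlet7a-2. For these pairs the ratio is one of uniquely placed reads and not of the mature strand they share with another locus.

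All reads of Mirlet7e depend on strand. The annotation places another microRNA gene, Gm25927 (17830343 to 17830459, minus strand), over the whole of Mirlet7e. In the deposited columns, Mirlet7e had 8060 and 6942 counts on its own strand and 0 in both libraries with either strand counted, since a read under both genes is then ambiguous. Gm25927 had 0 counts on its own strand in both libraries, and the column for its opposite strand held the same 8060 and 6942 reads. No other member had a microRNA gene over it, and for the other 8 the count with either strand equalled that on the own strand. No member had a count on the opposite strand.

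The levels of 12 related genes show where the members stand. They are the other let-7 genes with Mir98, the miR-10 genes, whose seed is another, and Mir351. Mir7k and Mir1961, with a strand of the let-7 seed, and Mir6367 and Mir6394, with one of the miR-125 seed, were not included. In the let-7 family, the 3 cluster members held 2.42% and 2.33% of the counts of 12 genes (2.37% ± 0.0668). This is a share of uniquely placed reads, and Mirlet7c-1 and Mirlet7a-2 share their 5p strand with another locus. How much of the mature let-7 came from the clusters was not measured. Mirlet7i, at 50055 CPM ± 4426, was 16.5 ± 0.684 times Mirlet7e, and Mirlet7g, at 46287 CPM ± 5137, was 15.2 ± 0.977 times. Mirlet7d (19583 CPM ± 1176) and Mirlet7b (15931 CPM ± 770.0) were also above it. Mir98, at 2722 and 3078 CPM, overlapped Mirlet7e over the libraries.

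Within let-7 the loci with a shared 5p strand were not all low. Mirlet7c-2 was at 453 CPM ± 29.7, Mirlet7a-1 at 248 CPM ± 19.1 and Mirlet7f-1 at 213 CPM ± 23.7, close to Mirlet7c-1. Mirlet7f-2, which shares let-7f-5p with Mirlet7f-1, was at 3346 and 3923 CPM, above Mirlet7e in both libraries and 17.1 ± 0.0109 times Mirlet7f-1. The 6 let-7 genes with a shared 5p strand ranged from 134 to 3635 CPM in the mean and the 6 without from 2900 to 50055 CPM, so these ranges overlap.

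Outside let-7, the related strands below are shown with bases 2 to 8 in capitals, so that they can be read against those of miR-99a-5p and miR-125a-5p above. The miR-10 genes lie within the Hox clusters, and their seed differs from that of miR-99/100. The Mir351 strand has the miR-125 seed and matches both miR-125 strands over the first 8 bases.
miR-10a-5p: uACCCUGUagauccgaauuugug
miR-10b-5p: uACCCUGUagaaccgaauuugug
miR-351-5p: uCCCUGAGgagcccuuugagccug

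With Mir10a and Mir10b included, Mir99a, Mir100 and Mir99b held 62.1% of the summed counts in each library. Mir99a stood at 1.45 and 1.49 times Mir10b (12561 CPM ± 2182). Mir10a (3095 CPM ± 44.2) lay between Mir100 and Mir99b. Mir351 was at 2803 CPM ± 298 and stood at 1.31 and 1.15 times Mir125a. With Mir351 included, the 3 miR-125 members held 47.6% and 50.6% of the summed counts. Mir125b-1 and Mir125b-2 share their 5p strand, so this too is a share of uniquely placed reads and not of mature strands.

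**Figure D3:**
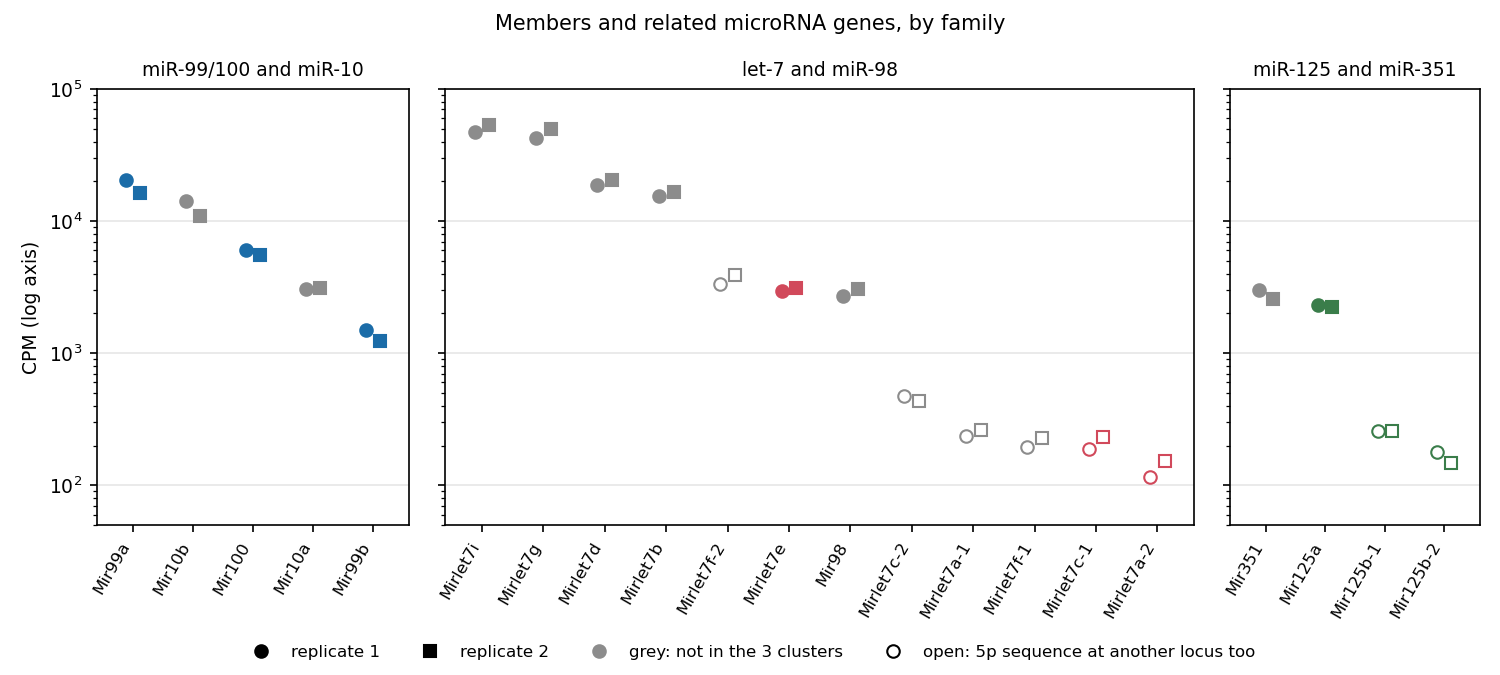
CPM (log axis) of the 9 members (coloured) and 12 related genes (grey), ordered by mean level within each family, with circles for replicate 1, squares for replicate 2 and open symbols for a 5p strand encoded at another locus too. Mir99a leads its family, Mirlet7e lies near Mirlet7f-2 and Mir98, and Mirlet7a-2 and Mirlet7c-1 are the lowest of the let-7 genes in the mean.

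With 1 group there is no pattern across conditions, so genes like the members were named by level only, as those next above and below the leading gene of each cluster in mean CPM. Around Mir99a these were Mirlet7d (19583 CPM ± 1176) and Mir26b (18297 CPM ± 1423). Around Mir100 they were Mir196b (5827 CPM ± 685) and Mir191 (5384 CPM ± 232), and around Mirlet7e they were Mir149 (3069.7 CPM ± 131) and Mir540 (3032 CPM ± 185). The range over the 2 libraries of each of these 6 genes overlapped that of its cluster member.

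The libraries were then compared with each other. The miR-99/100 members were all lower in replicate 2, and the let-7 members were level or higher. By an exact binomial test on TMM-scaled sizes, adjusted by Benjamini-Hochberg over 258 genes, 7 of the 9 members were called at 0.05, 2 of them higher and 5 lower in replicate 2. Over all genes tested, 50.8% were called, 19.0% higher and 31.8% lower. This test sets 1 library against the other and takes counting as the only source of error, and with it a call was common among all genes. None of the 9 reached a 2-fold difference, which 1.16% of all genes did with an adjusted p at most 0.05.

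The log2 ratios that follow are of replicate 2 over replicate 1, each taken as log2(CPM + 1) after TMM scaling. Mir99a had the lowest ratio of the members, −0.37, with 28 of 258 genes lower still (exact binomial test, adjusted p at or below 1e-300). Mir99b was at −0.32 (exact binomial test, adjusted p = 4.44e-19) and Mir100 at −0.18 (exact binomial test, adjusted p = 8.52e-24). Of the miR-125 members, Mir125b-2 was at −0.31 and Mir125a at −0.08 (exact binomial test, adjusted p = 0.00672 and 0.00629), and Mir125b-1 at −0.05 was not called. Mirlet7a-2 had the highest ratio, 0.35, and Mirlet7c-1 was at 0.24 (exact binomial test, adjusted p = 0.00460 and 0.0153). Mirlet7e was at 0.05 and was not called (exact binomial test, adjusted p = 0.0717).

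The median ratio was −0.08 over the 9 members and −0.04 over all 258 genes, and the median size of the ratio was 0.24 and 0.18. By family it was −0.32 for miR-99/100, 0.24 for let-7 and −0.08 for miR-125, with 3 members each. Of the 12 related genes, 6 were called higher and 3 lower in replicate 2, beside 19.0% and 31.8% of all genes tested. The 6 were let-7 genes, among them Mirlet7f-2 at 0.18 and Mirlet7g at 0.18, and the 3 were Mirlet7c-2 (−0.18), Mir10b (−0.40) and Mir351 (−0.26). The ratio of Mir99a to Mirlet7c-1 fell from 109 to 71.2 and that of Mir100 to Mirlet7a-2 from 52.6 to 36.4, while the ratios to the miR-125 partner were 115 and 110.4, and 23.6 and 21.7. The difference between families was not tested.

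Tissue and cell type markers also differed between the libraries, in both directions, by the same test. A call was common with it, at 50.8% of all 258 genes tested, 19.0% higher and 31.8% lower, so a call is not particular to the markers. The endothelial Mir126a (−0.33) was lower in replicate 2. Of the fibroblast markers, Mir214 (−0.40) was lower, Mir199a-2 (0.02) was not called, and Mir199a-1 had 6 and 1 counts and was not tested. Of the smooth muscle markers, Mir143 (−0.12) was lower and Mir145a (−0.04) was not called. Both erythroid markers were higher, Mir451a at 0.53 and Mir144 at 0.51. Of the 7 skeletal muscle markers tested, Mir499 (−0.69) and Mir206 (−0.05) were lower, Mir1a-2 (0.52) and Mir486 (0.14) were higher, and the other 3 were not called. The 3 leukocyte markers and the liver marker Mir122 were not called. The share of multi-mapped reads was 44.0% and 52.1%. The part of these measures in the members' ratios was not tested, and in bulk tissue fewer cells of a type and less RNA per cell cannot be told apart. The dispersion of edgeR's exact test comes from the same 2 libraries that it compares, so few calls were likely in advance. Its result does not show that the libraries are alike. With edgeR's exact test, 0 of the 9 members and 3 of all 258 genes were called. Of the members, 0 had an unadjusted p at most 0.05 by edgeR's exact test, and their adjusted p ranged from 0.950 to 0.995. With library sizes from total counts Mirlet7e was called at 0.10 (exact binomial test, adjusted p = 0.000149), and Mir125a at −0.04 was not (exact binomial test, adjusted p = 0.296).

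**Figure D4:**
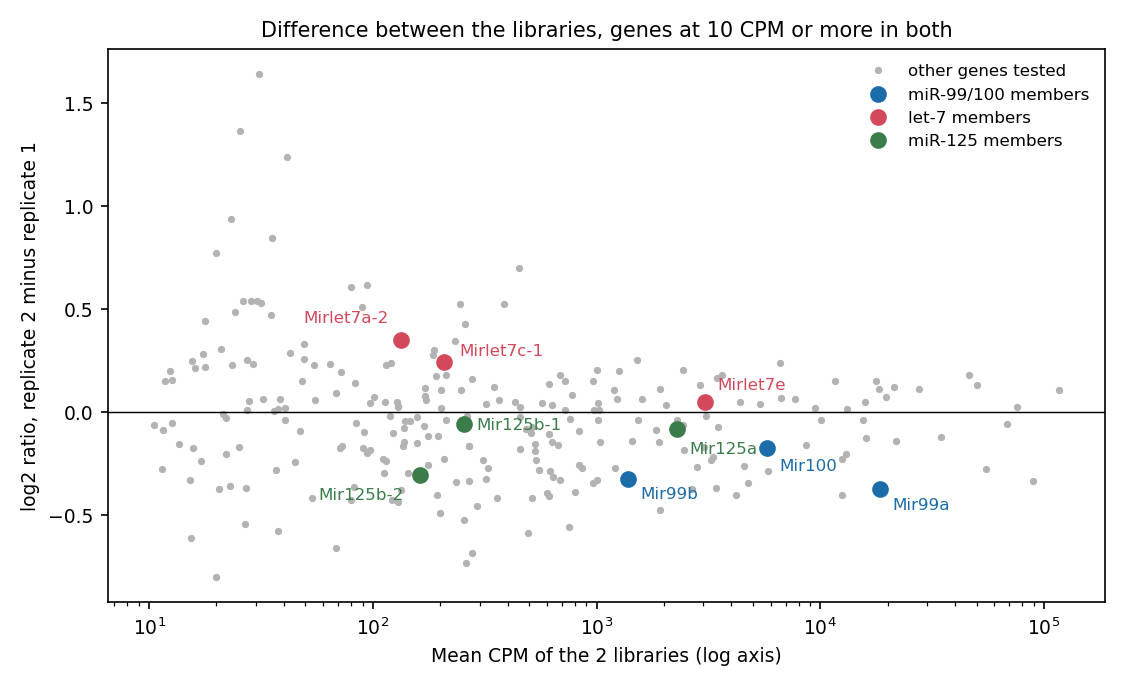
log2 ratio, replicate 2 minus replicate 1, against mean CPM (log axis) for the 258 genes tested, with the members coloured by family. Mir99a, Mir99b and Mir100 lie at −0.37, −0.32 and −0.18, Mirlet7a-2 and Mirlet7c-1 at 0.35 and 0.24, and all 9 lie within the range of the other genes.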

How the data were processed

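Small RNA of gastrocnemius was measured in 2 libraries of 1 group. Each deposited table holds raw read counts per microRNA gene in 3 columns (either strand, own strand, opposite strand), made by the authors on mm10 with annotation M21, per the labels and accompanying notes. The aligner, counter and trimming are not given in the sources used here. Lines that name no gene (72.7% and 73.0% of reads) stayed out of library sizes. All 2202 identifiers matched GENCODE M21. CPM was computed over own-strand counts. Counts over 258 genes differed between the libraries by a chi-square of 77.8 per degree of freedom, which is far more than counting error gives. The p-values of the binomial test do not cover this spread. Both libraries were kept.

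Genes at 10 CPM in both libraries were compared between libraries, on TMM sizes, by the exact binomial test, two-sided (edgeR 4.0.16, R 4.3.3), Benjamini-Hochberg adjustment at 0.05 and pseudocount 1. The procedure was tested on simulated data with counting error only, which is also what the binomial test assumes. That run could not show how the procedure behaves with the wider spread of these libraries. Alternatives were either-strand counts, other denominators, total-count and DESeq2 1.42.0 sizes, other filters, pseudocount 0.5, edgeR's exact test and each library alone. The members and gene lists were chosen with earlier results of these data known. Named genes are the 9 members, 12 related genes, tissue markers and the neighbours in level of each cluster's leading gene. Intervals cover counting error only.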

Additional observations from a re-analysis of the deposited data

How the results depend on the processing

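The 9 members held 3.17% of assigned counts, 3.74% with either strand counted (which sets Mirlet7e to 0), 3.59% without the most abundant gene in the denominator and 0.861% of all reads. With all reads as the denominator 2 members, against 5, reached 1000 reads per 1000000. The 5 members with a 5p strand of their own held 3.09%. Replicate 1 by itself gave 3.41%, and replicate 2 by itself gave 2.93%. The share of the let-7 members among the uniquely placed reads of the 12 let-7 and miR-98 genes was 0.245% with either strand counted. The dispersion of edgeR's exact test came from the same 2 libraries that it compares, so few calls were likely in advance. With edgeR's exact test 0 members and 3 of all 258 genes were called, against 7 and 131 by the binomial test. With total-count sizes 49.6% of called genes were lower in replicate 2, against 62.6%. No member's ratio changed sign under the alternatives run. A library left out leaves no second one for a ratio, so none is given. No paired analysis was possible because there is 1 group.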
